A study of Homo sapiens with 4 samples.

Results

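The genes that take up most ribosome footprints were ranked within 1 ribosome profiling library of K562, a human cell line from the blast phase of chronic myeloid leukemia that carries erythroid features and the BCR-ABL1 fusion. The ranking covered 19891 protein-coding genes, of which 19878 are nuclear and 13 are encoded by mitochondrial DNA. It used 1 of the 4 libraries of the series, in which K562, THP-1, MOLM13 and HL60 each have 1 library. K562 cells were grown untreated in serum-supplemented IMDM, and per the labels' protocols the lysis buffer held cycloheximide, an inhibitor of elongation. No line has a second library, so no value has a replicate check and no p-value is given.

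In ribosome profiling, nuclease digests the RNA that ribosomes do not cover, and the protected fragments are sequenced. A gene gathers footprints in proportion to the number of its mRNAs, to how many ribosomes each carries and to how long the coding sequence is. The share of all footprints on a gene therefore describes how much of the translating capacity it occupies, whereas the transcripts-per-million value (TPM), which divides by length, ranks genes nearer to the number of protein molecules being made. Amounts of mRNA were not used here, so the number of mRNAs and the ribosomes on each cannot be told apart.

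Footprint share was measured as aligned bases, the authors' mean coverage of each transcript times its length, summed per gene and divided by the sum over protein-coding genes. The library held 472.55 megabases in all, of which 366.09 megabases, 77.5%, lay on protein-coding genes. At 29 bases, the modal aligned length on short single-exon transcripts, the leading gene, HBE1, corresponds to 97969 footprints. The same genes held 39.5% of TPM. Confidence intervals below are exact 95% Clopper-Pearson intervals on bases divided by 29, and they cover counting error only.

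The profile carried the markers of the labelled line. Of 12 erythroid markers, 11 were above 0, with a summed 1.32% of protein-coding bases, of which HBE1 alone made up 58.7%. They included GATA1, the erythroid transcription factor (81.1 TPM), and HEMGN (176 TPM). All 9 neutrophil granule markers were listed at 0. So were 10 of 12 megakaryocyte, 8 of 10 monocyte, 8 of 10 T and NK cell and 6 of 8 B cell markers, and each of these lists held at most 0.00556%. Among all 19891 protein-coding genes 9991 were at 0. The epithelial and fibroblast list differed from these, with 10 of 12 markers above 0 and only KRT5 and KRT14 at 0. It held 0.108%, most of it on the keratins KRT8 (126 TPM) and KRT18 (215 TPM) and on EPCAM (80.5 TPM). The count above 0 thus did not set the erythroid list apart from this one, whereas the share of bases was lower here.

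Footprints were spread over many genes, with a steep head. The 10 leading genes held 4.56% of protein-coding aligned bases (95% interval 4.55% to 4.57%), the leading 100 held 17.7% and the leading 1000 held 55.0%. A share of 25% of the bases lay on 192 genes, a share of 50% was reached with 794 genes, 3.99% of all protein-coding genes, and 90% with 4452. At the other end, 9991 genes were listed at 0, and 9487 had at least 600 aligned bases, which corresponds to 20.7 footprints. By TPM, 361 genes sufficed for 50%, so the distribution was more uneven once length was divided out.

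HBE1, the epsilon chain of embryonic hemoglobin, stood first by both measures. It held 2841109 aligned bases, 0.776% of the protein-coding total (0.771% to 0.781%), and 8853 TPM. Its footprints lay on 3 exons at chr11:5268345-5269945 on the minus strand (hg38), within the beta globin cluster. The annotation gives HBE1 exon bases in common with HBG2, OR51B5 and AC104389.5, and the counting used no strand. HBZ, the zeta chain that pairs with epsilon in embryonic hemoglobin, was 18th by bases with 0.234% and the third by TPM with 3032. HBG1, a fetal gamma chain, followed far behind at rank 743 with 0.0279% and 338 TPM. The adult chains HBD and HBB stood at 11.2 and 1.95 TPM, and HBA1, HBA2, HBG2, HBM, HBQ1 and the alpha globin chaperone AHSP were listed at 0. The 11 genes of this list together held 1.04% of bases and 3.10% of TPM, of which HBE1 alone made up 74.7% of the bases. With coding exons alone the list held 0.445%. Without genes that share exon bases with another gene it held 0.000216%, since HBE1 and HBZ, which overlaps HBM, are then left out.

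**Figure D1:**
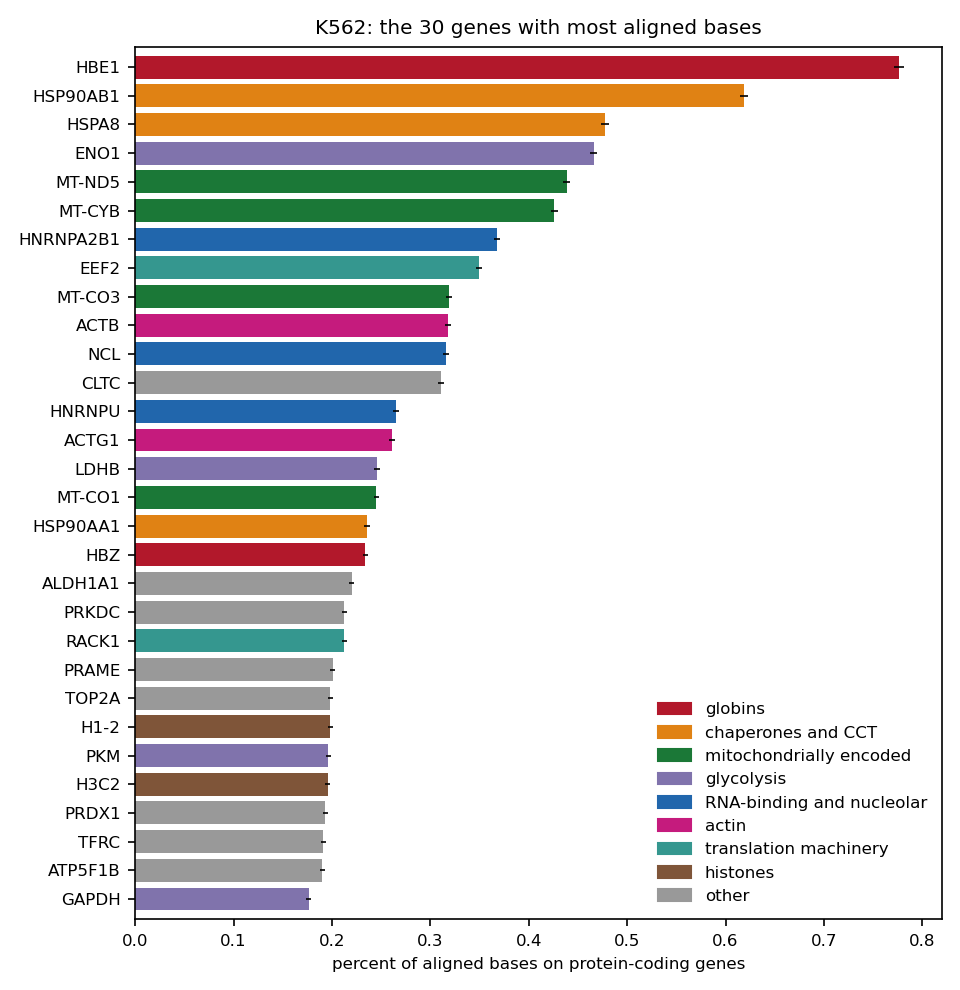
Share of protein-coding aligned bases (x axis, percent) for the 30 leading genes of the K562 library, with colours for function and 95% counting intervals as black bars. HBE1 lies apart at 0.776%, and the 30th gene, GAPDH, holds 0.176%.

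Chaperones of the cytosol took the next places. HSP90AB1, the constitutive HSP90, held 0.619% and was second, HSPA8, the constitutive HSP70, held 0.477% and was the third, and HSP90AA1, the inducible HSP90, held 0.236%. CCT3, CCT7, CCT2 and CCT4, subunits of the chaperonin that folds actin and tubulin, held between 0.142% and 0.163% each. All 22 members of the cytosolic chaperone list were above 0, 9 were in the leading 100, and the list held 2.78% of bases and 2.701% of TPM. Of all 19891 protein-coding genes 9900 were above 0, the share to set beside the count of each list. The median rank of the cytosolic chaperones was 122, against 9946 for all protein-coding genes. Among the proteins that this chaperonin folds, ACTB and ACTG1, the cytoplasmic actins, held 0.318% and 0.261%, and TUBB, a beta tubulin, held 0.169%.

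Mitochondrially encoded genes were prominent, although these mRNAs are read by the separate ribosomes of the organelle. All 13 were above 0 and 7 were in the leading 100. MT-ND5, a subunit of complex I, held 0.438%, MT-CYB, the cytochrome b of complex III, held 0.426%, and MT-CO3 and MT-CO1, subunits of cytochrome oxidase, held 0.319% and 0.245%. MT-ND4 held 0.160%, while MT-ATP6 held 0.0535% and MT-ND6 0.0620%. The 13 genes together held 2.12% of bases and 4.32% of TPM, with a median of 1018 TPM. The 77 nuclear genes of the respiratory chain and ATP synthase held nearly the same share, 2.17% of bases and 4.38% of TPM, but spread thinly, with a median of 158 TPM. ATP5F1B, the catalytic beta subunit of ATP synthase, led them with 0.190% and 772 TPM.

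Enzymes of glycolysis were also high. ENO1, enolase, was at rank 4 of all genes with 0.466% and 1829 TPM. LDHB and LDHA, the lactate dehydrogenase subunits, held 0.246% and 0.133%, PKM, pyruvate kinase, held 0.196% and GAPDH held 0.176%. Of 17 members 16 were above 0 and 7 were in the leading 100, and the list held 1.68% of bases. PGAM1 was listed at 0.

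The machinery that makes and handles RNA and protein occupied large blocks. The 80 cytosolic ribosomal proteins, RACK1 and ubiquitin fusions included, held 4.14% of bases and 9.01% of TPM, the most of the 35 functional lists by either measure. Of these, 15 were in the leading 100, led by RACK1 (0.212%), RPL11 (0.174%), RPS24 (0.150%) and RPL8 (0.148%). RACK1 held 5.13% of the list, 50 of the 80 were in the leading 1000 and 5 were at 0. With coding exons alone the list held 2.75%, below cytosolic chaperones (3.79%), the hnRNP, SR and splicing list (3.17%) and mitochondrially encoded genes (2.85%). That setting leaves out every exon that also holds untranslated bases, so coding bases in such exons are lost too. Without genes that overlap another gene the list held 3.50%, below histones (4.33%). Proteins of the hnRNP, SR and core splicing list came second with 3.36%, 57 of 58 members above 0 and a median rank of 402.5. HNRNPA2B1 (0.368%) and HNRNPU (0.265%) led it. NCL, nucleolin, a nucleolar RNA-binding protein, held 0.316%, which was 24.5% of the 1.29% on its list of 38 found nucleolar and ribosome biogenesis factors. EEF2, which moves the ribosome along the mRNA, held 0.349%, 52.1% of the list of elongation and termination factors. That list held 0.670%, but 0.173% without genes that overlap another gene, since EEF2, which shares exon bases with SNORD37, is among those left out. Of the leading 50 genes 30 share exon bases with some other gene, HBE1, ENO1, HNRNPA2B1 and HNRNPU among them. For 8 of the 50 it is a small RNA gene, as for HSPA8, NCL and RACK1. The share of such overlap over all protein-coding genes is not given here, so these counts are not read as a trait of the leading genes. The part of the overlap in their shares was not tested.

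Initiation factors held 1.45%, with 35 of 36 above 0 and EIF3B (0.104%) and EIF3A (0.0940%) ahead. The 23 cytosolic aminoacyl-tRNA synthetases, which charge tRNAs, were all above 0 and held 0.935%, led by EPRS1 (0.106%) and IARS1 (0.0756%). Mitochondrial ribosomal proteins held 0.896% over 78 genes, and none was in the leading 500. MRPS7 was highest at rank 789. The proteasome held 1.56% with 34 of 35 members above 0 and 30 in the leading 1000, so it was broad rather than carried by a few genes.

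Proliferation genes were a further block. TOP2A, the topoisomerase of dividing cells, was 23rd with 0.198%. XRCC5 (0.136%), a DNA end-binding protein, MCM7 (0.120%), a subunit of the replicative helicase, and PCNA (0.113%), the sliding clamp, were also in the leading 100. The DNA replication and repair list held 1.61% with 43 of 44 members above 0, and LIG1 was listed at 0. Replication-dependent histones, made in S phase from mRNAs that end in a stem-loop and not in a poly(A) tail, held 2.22% of bases and 6.78% of TPM. With coding exons alone they held 5.14e-06%, since an exon that also holds untranslated bases is then left out. H1-2 held 0.198% and 1930 TPM, H3C2 held 0.196% and 2727 TPM, and H4C3 held 0.137% and 2411 TPM.

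Beyond these, single genes stood out in lists that were otherwise low. PRAME, a cancer-testis antigen, held 0.201% and rank 22, which was 84.2% of its list. Of the 20 cancer-testis genes 12 were listed at 0, against 9991 of all 19891 protein-coding genes. TFRC, the transferrin receptor that brings iron into red cell precursors, held 0.191% and rank 28, 43.9% of the iron list. FTH1, the ferritin heavy chain, was listed at 0, and FTL, its light chain, stood at 119 TPM. The 10 genes of heme synthesis together held 0.111%, with UROD (0.0348%) first. ALAS1, the housekeeping form of the first enzyme, stood at 39.1 TPM, and ALAS2, its erythroid form, was at 0. Among the other erythroid genes, RHAG, a partner of the Rh antigens, was in the leading 100 with 0.103%, and 10 of 33 were at 0. MYC, at 0.0552% and rank 302, led the list of the BCR-ABL1 axis and apoptosis regulators. All 25 of its members were above 0, against 9900 of the 19891 protein-coding genes. Their median was 9.18 TPM, near the median of 8.62 TPM over protein-coding genes above 0.

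**Figure D2:**
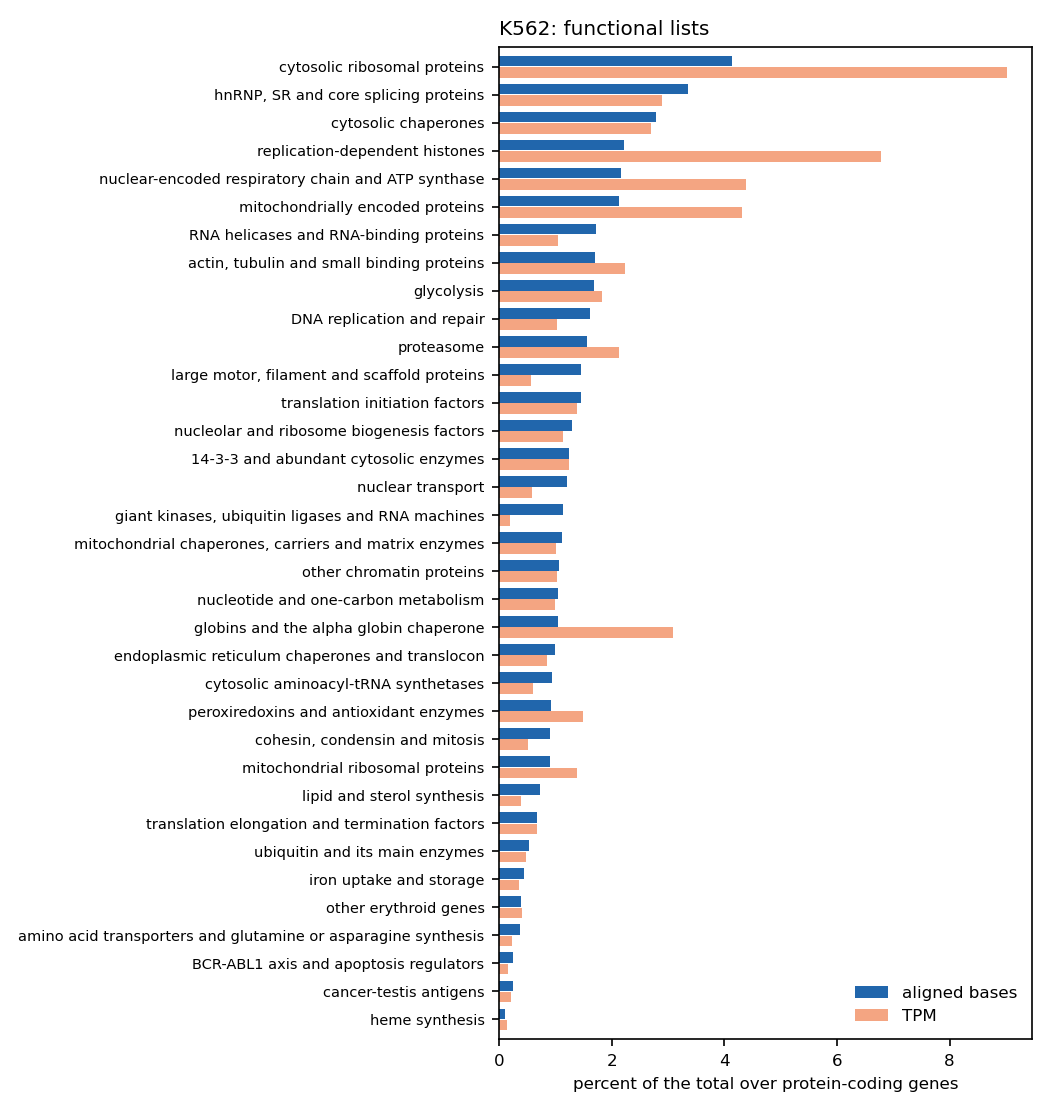
Percent of protein-coding aligned bases (blue) and of protein-coding TPM (orange) held by each of the 35 functional lists in K562, ordered by bases. Cytosolic ribosomal proteins lead by both, with 4.14% of bases and 9.01% of TPM (not with coding exons alone, or without overlapping genes), and lists of large proteins hold more of the bases than of the TPM.

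The 35 lists, with 1129 of the 19891 protein-coding genes, held 45.5% of bases and 57.5% of TPM, and 95 of the leading 100 genes were in one of them. The lists were chosen with earlier results of these data known, so these values partly reflect that choice. Leading genes outside the lists included ALDH1A1, a retinaldehyde dehydrogenase (0.220%), LRPPRC, a stabiliser of mitochondrial mRNAs (0.151%), SON (0.122%) and DDB1 (0.111%). They were named because they lay outside the lists.

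The rankings by bases and by TPM differed with gene length, as they must, since TPM divides by length and bases do not. Of the leading 50 genes by bases, 23 were also in the leading 50 by TPM. The 27 found by bases alone had a median of 545 codons, the 27 found by TPM alone a median of 126, and the detected genes a median of 480. CLTC, the clathrin heavy chain of 1679 codons, was 12th by bases with 0.311% and 259th by TPM with 267. PRKDC, a DNA repair kinase of 4128 codons, was 20th by bases with 0.213% and 651st by TPM with 117. At the short end, RPL38, of 70 codons by its 210 coding bases, was 21st by TPM with 1377 and 71st by bases. TMSB10, an actin-binding peptide of 44 codons, was 34th by TPM with 1050 and 200th by bases.

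**Figure D3:**
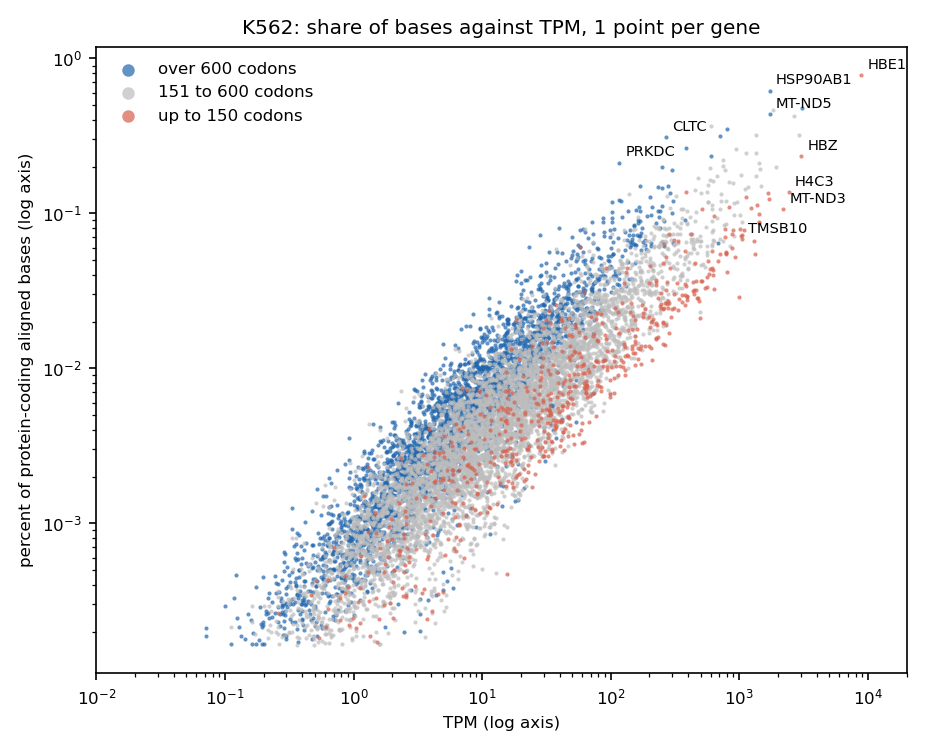
Percent of protein-coding aligned bases against TPM, both on log axes, for the K562 genes with at least 600 aligned bases, 1 point per gene. Genes of over 600 codons (blue) lie above those of up to 150 codons (red) at the same TPM, and HBE1 is at the far end of both axes.

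Over the whole proteome, genes of up to 150 codons were 6.42% of the detected genes and held 9.84% of bases but 24.7% of TPM. Genes of over 1200 codons were 10.4% of the detected genes and held 11.4% of bases but 3.23% of TPM. These gaps follow from the division by length. The list of giant kinases, ubiquitin ligases and RNA machines, made up of large proteins with a median of 3173.5 codons, held 1.13% of bases and 0.192% of TPM. PRPF8, the largest core splicing protein, held 0.121%, and UBR4, a ubiquitin ligase of 5183 codons, held 0.0802% at 39.9 TPM. Across the 9487 genes, Spearman's rho between both measures was 0.886, a description of values from the same library.

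The 4 histone H4 genes in the leading 50 by TPM encode the same protein from coding sequences that differ. Other H4 genes were not compared. Among them, H4C11, H4C12, H4C14 and H4C15 were listed at 0, as were 7 replication-dependent histone genes in all. H4C3, H4C2, H4C8 and H4C4 translated to 1 and the same chain of 103 residues, yet their coding sequences were between 79.6% and 83.8% identical. These 4 were in the leading 50 by TPM, with 2411, 1423, 1420 and 929 TPM. The stretch from base 133 to base 177 of each coding sequence, counted from the start codon, is shown with the positions at which the 4 are not all alike in capitals. These are 11 of 45 positions (GENCODE release 29, hg38, chr6:26104080-26104124 on the plus strand for H4C3, and minus strand for the others at chr6:26027076-26027120, chr6:26285323-26285367 and chr6:26188900-26188944).
H4C3: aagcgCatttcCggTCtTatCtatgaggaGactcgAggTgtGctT
H4C2: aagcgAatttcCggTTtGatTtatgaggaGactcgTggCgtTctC
H4C8: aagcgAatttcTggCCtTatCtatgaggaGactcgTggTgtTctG
H4C4: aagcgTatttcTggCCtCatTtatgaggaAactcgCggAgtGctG

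The part of a gene's bases on 1 annotated transcript varied among the leading genes. The leading transcript held at least 90% in 28 of the leading 50 genes and at least 50% in 42, with a median of 94.9%. Of the 28, 8 have a single annotated transcript, so their value is fixed at 100%. Over all detected genes the leading transcript held at least 90% in 73.9%, a larger part than among the leading 50. Of the 42 leading genes with more than 1 annotated transcript, 20 reached 90%, against 72.3% of the detected genes with more than 1. HBE1-203 held 99.5% of HBE1, HSP90AB1-203 99.0%, EEF2-201 99.7%, ALDH1A1-201 99.5%, TOP2A-201 100.0% and ATP5F1B-201 99.7%. In PRKDC, whose leading transcript has 86 exons, PRKDC-201 held 99.7%.

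**Figure D4:**
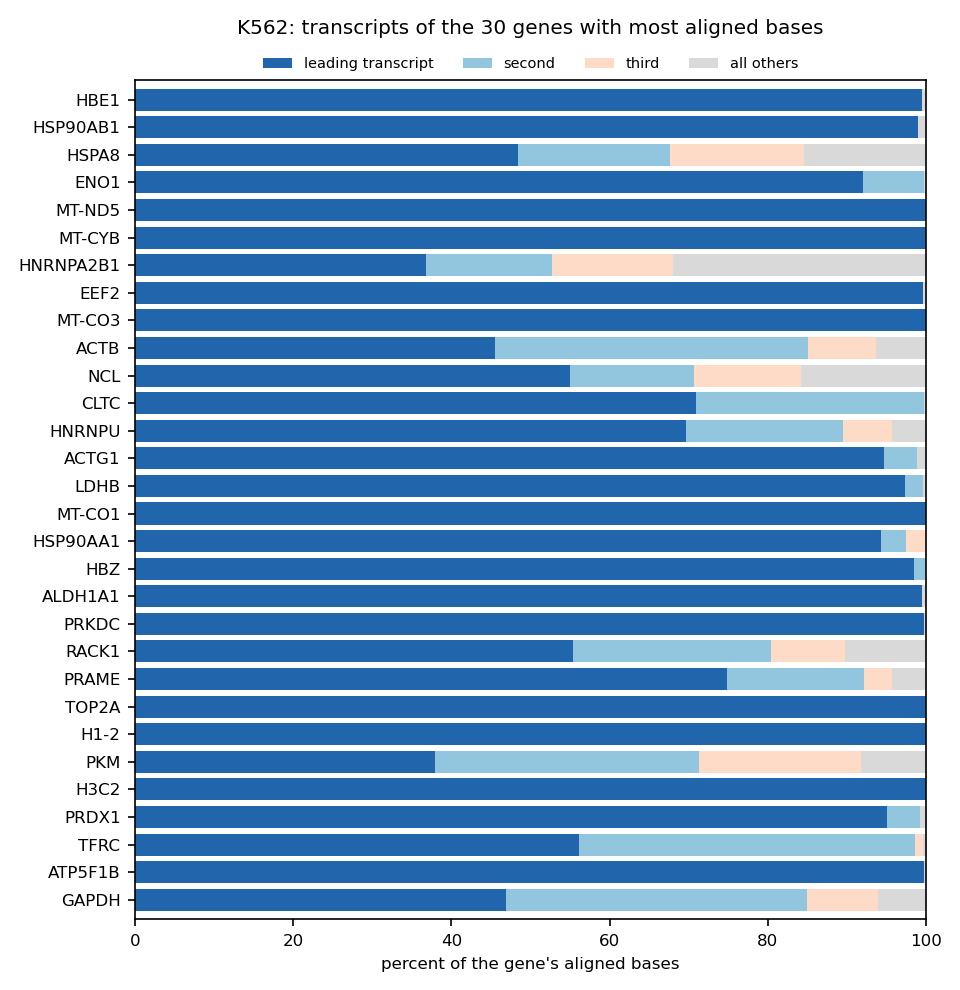
Percent of each gene's aligned bases (x axis) assigned to its leading transcripts, in order of share, and to all others, for the 30 leading genes of K562. HNRNPA2B1, PKM, ACTB, GAPDH and HSPA8 have leading transcripts under 50%, and HBE1, TOP2A and EEF2 have one above 99%.

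In 8 of the leading 50 no transcript reached 50%. HNRNPA2B1 was split over 7 transcripts above 0, of which the first held 36.8%. HSPA8 had HSPA8-224 at 48.4%, then 3 coding models of 3 to 5 exons at 19.3%, 16.9% and 12.4%. ACTB was divided between ACTB-214, a coding model, at 45.5% and ACTB-204, typed as a nonsense-mediated decay target, at 39.6%. PKM, GAPDH, RPL11 and HSP90B1 were also among the 8.

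The leading transcript was typed protein_coding by GENCODE release 29 in 39 of the leading 50 genes. It was typed as a retained intron for ENO1 (ENO1-210, 91.98%), ACTG1 (ACTG1-215, 94.7%), RPL8 (RPL8-203, 63.8%) and RPL37A (RPL37A-208, 50.1%), and as nonsense-mediated decay for RACK1 (RACK1-224, 55.4%) and PKM (PKM-219, 37.98%). That of RPS24 was typed as a processed transcript, and those of HNRNPA2B1, NCL, HBZ and HSP90B1 have no type in release 29. Where models share exons, the division among them is the estimate of StringTie. Over all protein-coding genes, 80.4% of bases were on transcripts typed protein_coding, 9.23% on retained introns and 3.46% on nonsense-mediated decay targets.

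Exon coverage was more direct where 2 transcripts differ in whole exons, and 2 genes chosen after their values were seen are given. PKM has a pair of mutually exclusive exons of 167 bases, the first specific to the M1 form of adult muscle and the second to the M2 form of dividing cells. Mean coverage was 3.69 on the M1 exon (chr15:72203022-72203188) and 102 on the M2 exon (chr15:72202454-72202620), a ratio of 27.7 of M2 to M1. The coding exon before them had 248 and the one after them 205. StringTie nevertheless placed 33.3% of the gene's bases on PKM-201, the model that holds the M1 exon. The exons differ at 62 of 167 bases, so footprints on them can be told apart, as 60 bases from the middle of each show (hg38, minus strand, chr15:72203076-72203135 for M1 and chr15:72202508-72202567 for M2), with differing bases in capitals.
M1 exon: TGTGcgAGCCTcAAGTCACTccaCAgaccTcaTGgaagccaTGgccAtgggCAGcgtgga
M2 exon: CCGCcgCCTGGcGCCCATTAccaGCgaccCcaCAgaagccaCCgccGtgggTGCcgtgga

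HSP90AA1 gave the second case. Its leading model HSP90AA1-202 was assigned 94.3% of the bases, but the first and second exon of that model had coverage of 2.06 and 0.512, against 133 on exon 3. A 59-base exon at chr14:102086986-102087044, which begins another model of the gene, had coverage of 285. The exons that set HSP90AA1-202 apart were therefore nearly empty.

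Footprints were seldom concentrated in 1 exon. Of the 36 leading genes with 5 or more exons in the leading transcript, 1 had over 50% of its bases in a single exon. This was RPS24, with 66.6% in its second exon, which is 9.19% of the length. The median gene had 20.6% in its fullest exon. Coverage was higher toward the start of the coding sequence. Over 408 listed or leading genes with at least 8 coding exons and over 90% unique windows, the second coding exon had a median of 1.30 times the gene's mean coding coverage, the middle exon 0.952 times and the second-to-last 0.805 times. The part before the middle exceeded the part after it in 264 of the 408, with a median ratio of 1.17. EEF2 had 749 in the earlier part and 326 in the later, and CALR, a chaperone of the endoplasmic reticulum, 735 and 254.

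Genes whose coding sequence lies almost wholly at other loci too were more often listed at 0. For each gene the percent of 29-base windows of its longest coding sequence that occur in no transcript of a gene at another locus was computed, here called unique windows, a measure added after the values were seen. The median was 100% over all protein-coding genes but 29.9% over the 80 ribosomal proteins. Of 41 genes in housekeeping lists with at most 10% unique windows, 19 were listed at 0, 46.3%, against 7 of 605, 1.16%, with over 90%. Those 41 genes held 0.271% of protein-coding bases. Over all protein-coding genes, 515 of 549 with at most 10% were at 0, 93.8%, against 8150 of 16624, 49.0%, with over 90%. Above 10% the housekeeping genes showed no steady rise. Their median was 128 TPM with over 10% to 50%, 139 TPM with over 50% to 90% and 77.6 TPM with over 90%. How reads that match several places were treated is not given in the sources used here, and the part of this in the ranking was not tested.

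Among ribosomal proteins, the median TPM rose with unique windows. The 15 with at most 10% unique windows had a median of 14.7 TPM, the 39 with over 10% to 50% had 262 TPM, and the 25 with over 50% to 90% had 1007 TPM. The 5 listed at 0, RPS3A, RPS26, RPS27A and RPL36A among them, had at most 27.1% unique windows. The values for such genes, and the list's share of 4.14%, are uncertain for that reason. So are those of some of the leading 30 genes, although the leading 100 had a median of 92.5% unique windows. HSP90AB1 had 46.9%, HSPA8 44.0%, ACTB 48.7%, MT-CO1 30.6%, HSP90AA1 47.6%, HBZ 12.8% and GAPDH 31.7%.

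Middle windows of coding exons show the difference. A window printed in capitals occurs at no other locus, and one in lower case does. The windows of HBE1, ENO1 and EEF2 were found nowhere else. That of EEF1A1, the factor that brings aminoacyl-tRNA to the ribosome, was found in 10 genes at other loci, that of TMSB4X in 5 and that of RPS27A in 2 (GENCODE release 29, hg38).
HBE1 coding exon 1, chr11:5269831-5269859, minus strand: CCGTCACTAGCCTGTGGAGCAAGATGAAT
ENO1 coding exon 7, chr1:8865370-8865398, minus strand: TCTTCAGGTCTGGGAAGTATGACCTGGAC
EEF2 coding exon 5, chr19:3982321-3982349, minus strand: GAGATGTATGTGGCCAAGTTCGCCGCCAA
EEF1A1 coding exon 3, chr6:73519066-73519094, minus strand: caaaatggattccactgagccaccctaca
TMSB4X coding exon 1, chrX:12976297-12976325, plus strand: attcgataagtcgaaactgaagaagacag
RPS27A coding exon 4, chr2:55234882-55234910, plus strand: aagaagaagtcttacaccactcccaagaa

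In EEF1A1, the exon with unique windows was the most covered. EEF1A1 ranked 808th with 57.4 TPM. Coverage was 420 on its second coding exon, where 11.2% of windows are unique, and between 0.111 and 9.31 on the other 6, where none is. FTH1, TMSB4X and RPS27A were at 0 in every coding exon. These included coding exons 3 and 4 of FTH1, with 29.6% and 14.2% unique windows, and coding exon 5 of RPS27A, with 11.8%. Such shares were no lower than the 11.2% of the covered EEF1A1 exon.

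The 3 coding exons of HBZ did not simply follow their unique windows. Coverage was 7568 on the first (chr16:152910-153004), 0 on the second and 2.85 on the third, while HBE1 had 9117, 3304 and 3003 on its own 3. The unique windows of HBZ were 32.8%, 0% and 29.6% in that order, and those of HBE1 were 100%, 91.3% and 100%. The first and the third thus had similar shares of unique windows but very unequal coverage. The rank of HBZ rests on its first coding exon alone, where its coverage was near that of HBE1. The neighbouring pseudogene HBZP1 has the same 205 bases as the second exon and differs from the first at 2 of 95 bases. The first 60 bases of the first exon (hg38, chr16:152910-152969, plus strand) beside those of HBZP1 are shown with these bases in capitals.
HBZ coding exon 1: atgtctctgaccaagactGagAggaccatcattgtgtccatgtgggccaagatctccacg
HBZP1: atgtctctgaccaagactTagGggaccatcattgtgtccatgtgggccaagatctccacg
HBG1 had coverage of 0, 403 and 56.1 on its 3 coding exons with 0%, 14.9% and 29.6% unique windows, so the higher coverage was not on the exon with the larger share, and HBG2, its near copy with the same windows, was at 0 throughout. Values for both gamma genes are uncertain. HBA1 and HBA2 had 0% unique windows in all 3 coding exons, so their 0 and the globin share of 1.04% are uncertain too.

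**Figure D5:**
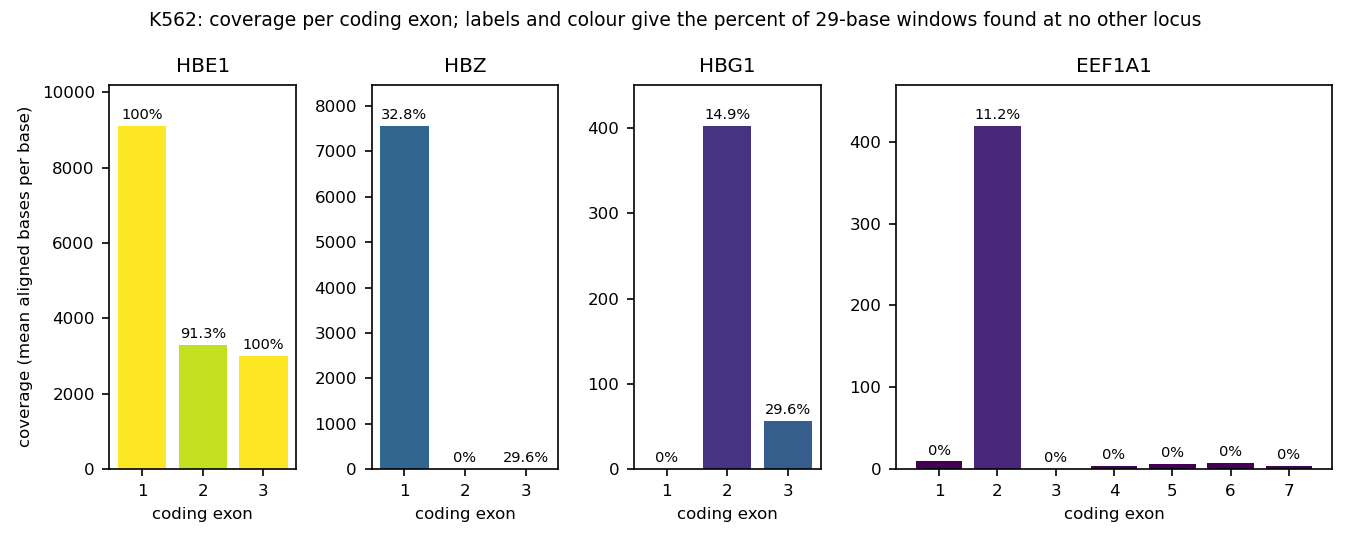
Mean coverage of each coding exon of HBE1, HBZ, HBG1 and EEF1A1 in K562 (y axes differ between panels), with the percent of 29-base windows found at no other locus as the label and colour of each bar. HBE1 is covered throughout, HBZ only in exon 1, with 7568, and EEF1A1 mainly in exon 2, with 420.

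Over 414 coding exons of listed or leading genes with at most 10% unique windows, median coverage was 0.0477 of the gene's own mean. It was 0.703 over 701 exons with over 10% to 50%, 0.935 over 1236 exons with over 50% to 90% and 0.924 over 9939 exons with over 90%. Exons nearly without unique windows were thus low within their own genes.

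The other 3 libraries held between 344.18 and 973.09 megabases. Set beside them, 3 of the leading 50 K562 genes were at least 4-fold above the highest other line, against 3.92% of the 9487 genes tested by the same rule on bases per megabase of protein-coding bases. HBE1 had 7761 in K562, against 0 in THP-1 and HL60 and 7.75 in the MOLM13-labelled library. HBZ had 2341 in K562 and 0 in the other 3. PRAME had 2010 in K562, against 129 in THP-1, 140 in HL60 and 36.7 under the MOLM13 label. The name of the MOLM13-labelled file does not match that label.

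Sharing of the leading genes varied by line. Of the K562 leading 50, 38 were in the leading 50 of the MOLM13-labelled library, 26 in that of HL60 and 22 in that of THP-1. HSP90AB1 had 6189 in K562, against 3325 in THP-1, 2454 in HL60 and 3671 under the MOLM13 label. Mitochondrially encoded genes held 2.12% of bases in K562, against 0.619% in THP-1, 0.983% in HL60 and 1.116% under the MOLM13 label. The libraries also differed in make-up. Protein-coding genes held 77.5% of all bases in K562, against 85.2% in THP-1, 88.2% in HL60 and 84.3% under the MOLM13 label. With 1 library per line, a difference between lines cannot be told apart from one between libraries. MT-ND4 had 1596 in K562 and between 214 and 403 in the other 3. ACTB ran the other way, with 3184 in K562, 9113 in THP-1, 8788 in HL60 and 3338 under the MOLM13 label.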

How the data were processed

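Footprints of 1 K562 library were analysed, with the other 3 lines only where values are set beside it. The submitters' processing notes name StringTie 2.1.5, STAR 2.7.8a, Bowtie2 2.4.2, Trim Galore 0.6.6 and hg38. Per the file headers, StringTie ran on read 1 with GENCODE release 37, without new transcripts and without a strand option. The deposited values are the authors' TPM and mean coverage per transcript and coverage per exon.

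Aligned bases are the authors' coverage times length. Gene types and coding regions came from GENCODE release 29, and coding regions were used where introns matched. The design gives no test. Scripts were tested on simulated data. A gene was called high when log2(bases per megabase of protein-coding bases + 1) was at least 2 above the highest other line, with at least 600 aligned bases.

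Members and lists were chosen with earlier results of these data known. Named genes are the 30 leading by bases, the 20 by TPM, up to the 4 leading members of each list, and members at 0. Some are not reported here, and the other genes, unique windows and alternative exons were chosen after their values were seen. Alternatives covered the denominator, TPM, overlapping genes, coding exons, low values and thresholds. Versions were pandas 2.3.3, Matplotlib 3.10.9, SciPy 1.17.1, NumPy 2.4.6 and Python 3.11.15.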

Additional observations from a re-analysis of the deposited data

How the results depend on the processing

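No paired analysis was possible because each line has 1 library and no result comes from a test. The main values were 794 genes for 50% of protein-coding aligned bases, 4.56% for the leading 10 genes and 17.7% for the leading 100. With TPM they became 361 genes, 7.99% and 28.7%. With genes of every type in the denominator, where mitochondrial ribosomal RNA and small RNAs enter, they became 469 genes, 19.9% and 32.2%. With genes that share no exon base with another gene they became 409 genes, 6.49% and 24.4%. With exons wholly inside a coding region, 50.9% of the bases, the leading shares became 5.65% and 21.4%. With nuclear genes alone they were 4.36% and 16.9%, and with genes of over 90% unique windows, an alternative chosen after seeing the data, 4.71% and 17.9%. The count of leading genes with over 50% of their bases in 1 exon was 1, but 3 at 40% and 4 when genes with 3 or more exons entered. The count of leading 50 genes above every other line was 3 at 4-fold and 6 at 2-fold, and 5 without the library labelled MOLM13. Of 35 lists, TPM moved the share of 16 by over 1.5 times, the leaving out of overlapping genes that of 12 and coding exons that of 7. Ribosomal proteins lost the first place among the lists under the last 2 of these, and the globin list fell to 0.445% with coding exons and 0.000216% without overlapping genes, against 1.04%. Counts for transcripts stayed within 1.5 times. A gene with 600 bases has 20.7 footprints, which limits low ranks. The cause of these shifts was not tested, beyond what each alternative leaves out or divides by.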

Other observations

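Outside the protein-coding genes, mitochondrial ribosomal RNA held 12.6% of all aligned bases in K562 and small nuclear RNAs held 4.06% of bases but 24.8% of TPM. Processed pseudogenes held 0.427% of bases and 0.615% of TPM. Several of them were above 0, and those named were chosen after their values were seen. RPS4XP22, a copy of a ribosomal protein gene, had 84.0 TPM, TMSB4XP1, a copy of TMSB4X, had 226 TPM while TMSB4X itself was listed at 0, and HSPA8P1 had 32.3 TPM. EEF1A1P17 had 26.5 TPM, against 57.4 TPM for EEF1A1. These values were not assigned to the parent genes in any share given above.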
